A study of Mus musculus with 6 samples.

Results

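The 9 genes described here encode the transcription factors that fix rod fate and the proteins that carry the light response of the rod. They were taken by symbol (*Nrl*, *Nr2e3*, *Gnat1*, *Pde6a*, *Pde6b*, *Pde6g*, *Cnga1*, *Cngb1*, and *Sag*) from a table of 21744 genes measured by RNA-seq in the mouse retina at postnatal day 7 (P7), and 9 of 9 were found. The study asked what the developing retina loses without the LIM-homeodomain factor *Lhx4*. It compared 3 control mice with 3 *Lhx4* null mice, and the retinas of each mouse made 1 library after removal of the pigment epithelium. Markers of pigment epithelium were still found in every library and are given under Other observations. Values are FPKM, fragment counts corrected for gene length and library size, so levels can be compared between genes per unit of length.

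All 6 mice were on a C57BL/6J; 129S6 mixed background, and animals of both sexes were used. In the study, *Lhx4* null mice carried a tdTomato knock-in allele and a loxP allele of *Lhx4* with *Six3*-Cre, which acts in the retina (*Lhx4* tdT/loxP; *Six3*-Cre). The genotype of the control mice used for sequencing was given only as control, so whether they carried Cre or a loxP allele is not stated for these libraries.

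The FPKM of the targeted gene was not lower in the libraries labelled *Lhx4* null. Control replicates 1, 2, and 3 held *Lhx4* at 20.9, 23.8, and 19.1 FPKM, whereas replicates 1, 2, and 3 labelled *Lhx4* null held it at 31.2, 30.3, and 29.0 FPKM. Every library labelled null was above every control library, at 30.2 ± 1.1 against 21.2 ± 2.4 FPKM (mean ± SD, n = 3; log2 fold change 0.51 ± 0.09 SE, limma adjusted p = 0.098). The value covers the whole gene and does not show which exons or which allele the fragments came from. The group is therefore called the libraries labelled *Lhx4* null throughout. Of 11 markers of bipolar cells, the interneurons that receive photoreceptor signals, all had a lower mean in the libraries labelled null, and 8 passed an unadjusted p of 0.05 in that direction, against 3.55% of all genes tested. The groups did not overlap in 7 of the 11, against 14.2% of all genes tested. They overlapped in *Prkca*, *Cabp5*, *Gnao1*, and *Gpr179*, and labelled null replicate 1 was the highest of the 6 libraries in *Cabp5* and *Gpr179*. The 4 that fell past an adjusted p of 0.05 in limma, named after their values were seen, were *Bhlhe23*, *Grm6*, *Pcp2*, and *Isl1*. *Bhlhe23*, a transcription factor of bipolar cells, fell from 10.2, 13.0, and 10.6 FPKM in controls to 0.814, 0.563, and 0.830 FPKM (log2 fold change -3.78 ± 0.17 SE, limma adjusted p = 0.00017). In *Bhlhe23* the libraries thus followed their labels. All 3 libraries labelled null were below every control in this gene, labelled null replicate 1 included. The study likewise named it among its most downregulated genes at P7.

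The libraries also differed in depth. Relative to the deepest library, control replicate 3, the depth was 95.7% and 76.8% for control replicates 1 and 2, and for the libraries labelled null it was 46.7%, 57.5%, and 65.9% in the order of their numbers. The groups did not overlap in depth (exact permutation test, two-sided; p = 0.1 is as low as 3 against 3 can reach). The lowest value of any rod gene in any library was 12.8 FPKM.

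A rod turns light into a change of membrane voltage through a chain of proteins. The visual pigment activates transducin, transducin releases the inhibitory subunits of phosphodiesterase 6, the enzyme destroys cyclic GMP, and cation channels held open by cyclic GMP close, until arrestin ends the signal. In the mouse the fate factors act early in each rod, and the genes of the cascade are turned up later, as the outer segment grows after birth, so a P7 retina holds rods that are still maturing.

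*Nrl* encodes the leucine zipper factor that directs photoreceptor precursors to the rod fate. It stood at 478, 447, and 478 FPKM in controls and at 462, 436, and 455 FPKM for the libraries labelled null. The values of both groups interleaved, and the highest library exceeded the lowest by 1.10-fold. *Nr2e3* encodes an orphan nuclear receptor that acts with NRL and represses cone genes in rods. Its control values were 789, 735, and 722 FPKM, against 772, 829, and 798 FPKM for the libraries labelled null. The groups overlapped through control replicate 1, with a range of 1.15-fold over the 6 libraries.

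Neither fate factor passed the limma test, and the groups of both overlapped. *Nrl* averaged 468 ± 17 FPKM in controls and 451 ± 14 FPKM for the libraries labelled null (mean ± SD, n = 3), with a log2 fold change of -0.05 with a 95% interval from -0.23 to 0.13 (limma adjusted p = 0.90). *Nr2e3* averaged 749 ± 35 and 800 ± 28 FPKM, a log2 fold change of 0.10 with an interval from -0.11 to 0.30 (limma adjusted p = 0.80), and it was 0.15 with quantile normalization. Both intervals leave out a change as large as that estimated for *Gnat1* or *Pde6a*, whose own intervals include 0. The interval of *Nrl* does include the change estimated for *Cngb1* (-0.16). In bulk tissue, fewer rods and less RNA per rod cannot be told apart from these values alone. By histology at P7, the study saw no overt change in cell number in the layer of photoreceptors. It counted fewer cells in the inner nuclear layer, which holds the bipolar cells. The ratio of *Nr2e3* to *Nrl* within a library, which does not depend on how that library was scaled, was 1.65, 1.64, and 1.51 in controls and 1.67, 1.90, and 1.75 in the libraries labelled null. The ratio was above every control in each library labelled null, by 0.15 on the log2 scale (exact permutation test, two-sided p = 0.1; adjusted p = 0.25 over 10 ratios). The difference was 0.097 without labelled null replicate 2.

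*Gnat1* encodes the alpha subunit of rod transducin, the G protein that passes the signal from the visual pigment to the phosphodiesterase. Its level was 29.2, 84.3, and 35.8 FPKM in controls, against 56.1, 21.2, and 20.0 FPKM for the libraries labelled null. Control replicate 2 was the highest library and labelled null replicate 1 the second, above both other controls, while labelled null replicates 2 and 3 were the lowest. *Gnat1* thus varied 2.89-fold among controls and 2.80-fold among the libraries labelled null. The log2 fold change between the groups was -0.63 ± 0.47 (SE; 95% interval from -1.71 to 0.45, limma adjusted p = 0.75), smaller than the within-group SD of 0.82 on the same scale.

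**Figure D1:**
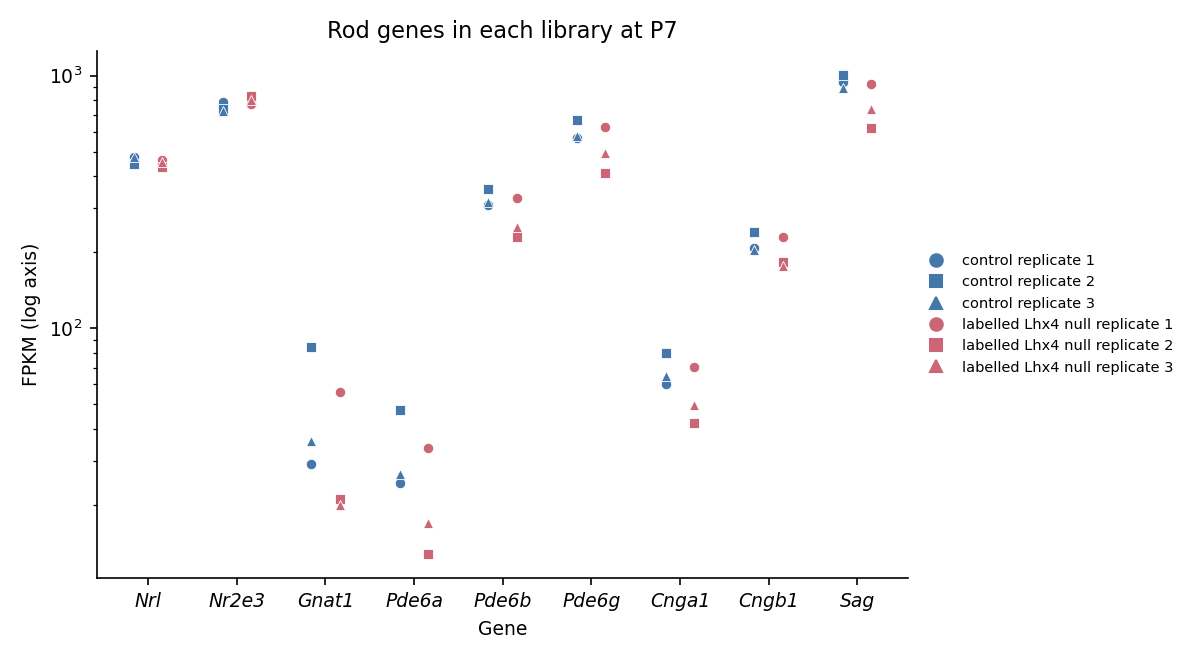
FPKM of each rod gene (log axis) in each of the 6 P7 libraries, with blue for control, red for the libraries labelled *Lhx4* null, and symbols for replicate numbers. *Nrl* and *Nr2e3* lie within 1.10-fold and 1.15-fold over the libraries, and *Gnat1* spreads 4.21-fold, from 20.0 to 84.3 FPKM.

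Phosphodiesterase 6 of rods is made of 2 catalytic subunits, encoded by *Pde6a* and *Pde6b*, and inhibitory gamma subunits, encoded by *Pde6g*. *Pde6a* stood at 24.5, 47.3, and 26.5 FPKM in controls and at 33.6, 12.8, and 17.0 FPKM for the libraries labelled null. *Pde6b*, its partner in the same enzyme, stood at 309, 355, and 316 FPKM in controls and at 328, 229, and 252 FPKM for the libraries labelled null. *Pde6g* stood at 567, 669, and 577 FPKM in controls and at 628, 413, and 496 FPKM for the libraries labelled null. In each of the 3 genes control replicate 2 was highest, labelled null replicate 1 second, labelled null replicate 3 next to lowest, and labelled null replicate 2 lowest, so the groups overlapped through a single library, labelled null replicate 1.

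The subunits of the enzyme were far apart in level. In control libraries *Pde6a* averaged 32.8 ± 12.6 FPKM, *Pde6b* 327 ± 25 FPKM, and *Pde6g* 604 ± 56 FPKM (mean ± SD, n = 3), and in the libraries labelled null they averaged 21.1 ± 11.0, 270 ± 51, and 513 ± 109 FPKM in the same order. The ratio of *Pde6a* to *Pde6b* was 0.080, 0.133, and 0.084 in controls and 0.103, 0.056, and 0.068 in the libraries labelled null, and the groups overlapped (log2 difference -0.40, exact permutation test, two-sided p = 0.4; adjusted p = 0.44 over 10 ratios). This difference was -0.16 without control replicate 2, -0.21 without labelled null replicate 2, and -0.64 without labelled null replicate 1. The log2 fold changes were -0.69 ± 0.36 for *Pde6a*, -0.29 ± 0.13 for *Pde6b*, and -0.25 ± 0.15 for *Pde6g* (± SE), and none passed the limma test (adjusted p = 0.67, 0.63, and 0.70).

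The cyclic GMP-gated channel of the rod joins *Cnga1*, the subunit that can form a channel by itself, with the modulatory subunit *Cngb1*. *Cnga1* stood at 60.4, 79.9, and 64.8 FPKM in controls and at 70.4, 42.3, and 49.5 FPKM for the libraries labelled null. *Cngb1* stood at 208, 240, and 205 FPKM in controls and at 229, 182, and 176 FPKM for the libraries labelled null. Both subunits were highest in control replicate 2 and second in labelled null replicate 1, and lower than every control in labelled null replicates 2 and 3. The log2 fold change was -0.36 ± 0.18 for *Cnga1* and -0.16 ± 0.12 for *Cngb1* (± SE; limma adjusted p = 0.66 and 0.74). Their ratio was 0.291, 0.333, and 0.317 in controls and 0.308, 0.232, and 0.282 in the libraries labelled null, and the groups overlapped (log2 difference -0.20, exact permutation test, two-sided p = 0.2; adjusted p = 0.29 over 10 ratios). Without labelled null replicate 2 the difference was -0.090.

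*Sag* encodes rod arrestin, which binds the activated pigment and stops it from signalling. It had the highest level of the 9 genes in each control library and in labelled null replicate 1, and *Nr2e3* was above it in labelled null replicates 2 and 3. Its values were 945, 1008, and 892 FPKM in controls and 927, 623, and 739 FPKM for the libraries labelled null. Labelled null replicates 2 and 3 were below every control, and labelled null replicate 1 lay inside the control range. The means were 948 ± 58 and 763 ± 153 FPKM (mean ± SD, n = 3), with a log2 fold change of -0.33 ± 0.15 (SE; 95% interval from -0.67 to 0.01, limma adjusted p = 0.62). *Gnat1*, which passes the signal on, and *Sag*, which ends it, did not keep 1 ratio. *Gnat1* was 0.031, 0.084, and 0.040 of *Sag* in controls and 0.061, 0.034, and 0.027 of it in the libraries labelled null. The log2 difference of -0.30 in this ratio (exact permutation test, two-sided p = 0.6; adjusted p = 0.60 over 10 ratios) became 0.12 without control replicate 2, -0.60 without control replicate 1, and -0.63 and -0.049 without labelled null replicates 1 and 3.

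The 9 genes are scattered over the genome. In GENCODE M21 on GRCm38, the fate factors *Nrl* (ENSMUSG00000040632) and *Nr2e3* (ENSMUSG00000032292) lie at chr14:55518978-55524981 and chr9:59942771-59960659, and *Gnat1* (ENSMUSG00000034837) lies at chr9:107674474-107679712. The subunit genes *Pde6a* (ENSMUSG00000024575), *Pde6b* (ENSMUSG00000029491), and *Pde6g* (ENSMUSG00000025386) lie at chr18:61220315-61289924, chr5:108388391-108432397, and chr11:120447605-120453500. *Cnga1* (ENSMUSG00000067220), *Cngb1* (ENSMUSG00000031789), and *Sag* (ENSMUSG00000056055) lie at chr5:72603696-72644275, chr8:95239045-95306585, and chr1:87803680-87845158. Of the 9 genes, 8 share no exon base with another annotated gene, and *Nr2e3* shares 1.81% of its exon bases with *Gm15507*.

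Across the 9 genes, 0 were past an adjusted p of 0.05 and 0 past an unadjusted p of 0.05 in limma. Of all 15200 genes tested, 34 (0.224%) passed the adjusted threshold and 8.15% the unadjusted one, with 3.55% lower and 4.6% higher in the libraries labelled null. The count of 34 became 16, 20, and 17 without control replicates 1, 2, and 3, and 17 and 15 without labelled null replicates 2 and 3. None of the 9 genes had groups that did not overlap, against 14.2% of all genes tested. In the means, 8 of the 9 genes were lower in the libraries labelled null, and the median log2 fold change was -0.29 over the 9 genes and 0.01 over all genes tested.

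**Figure D2:**
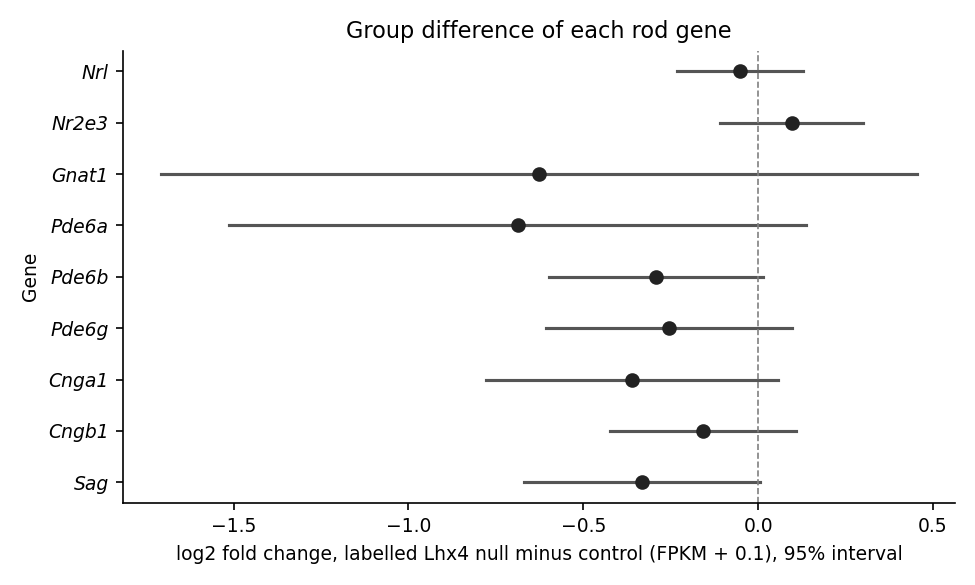
Log2 fold change of FPKM + 0.1 (labelled *Lhx4* null minus control, points) with 95% intervals from limma (lines) for each rod gene, 3 libraries a group. Every interval includes 0, from the narrow one of *Nrl* (-0.23 to 0.13) to the wide one of *Gnat1* (-1.71 to 0.45).

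The count of 0 rod genes depended on 1 library. Without labelled null replicate 1, the 7 genes of the cascade each passed an unadjusted p of 0.05 and were lower in the libraries labelled null, against 6.02% of all genes lower at that threshold, while *Nrl* and *Nr2e3* did not. The log2 fold change of *Gnat1* was then -1.11, of *Pde6a* -1.08, of *Cnga1* -0.57, of *Pde6b* -0.44, of *Pde6g* -0.41, and of *Cngb1* -0.27, and 0 of the 9 genes passed an adjusted p of 0.05. Labelled null replicate 1 was the second highest library in 6 of the 7 cascade genes, so leaving it out was bound to widen their differences. These genes also varied together across the libraries, so they are not 7 separate results. Leaving out any other library kept the count at 0. The median over the 9 genes was -0.44 without labelled null replicate 1, and -0.18 without control replicate 2 or without labelled null replicate 2. Leaving out some of the other libraries moved these values toward 0. Without control replicate 2, *Gnat1* was -0.17, *Pde6a* -0.39, and *Cngb1* -0.085. Without labelled null replicate 2, *Gnat1* was -0.41, *Pde6a* -0.39, *Cnga1* -0.20, *Sag* -0.19, *Pde6b* -0.18, and *Pde6g* -0.11. Without labelled null replicate 3, *Gnat1* was -0.37 and *Cngb1* -0.086. *Nrl*, near 0 throughout, was -0.027 without labelled null replicate 2 and -0.083 without control replicate 2. With control replicates 1 and 3 against labelled null replicates 1 and 3, the libraries low in lens genes, the median was -0.059 and *Gnat1* turned to 0.054. The other 6 cascade genes then lay between -0.15 (*Sag*) and -0.034 (*Pde6g*), and *Nr2e3* was 0.057.

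The libraries differed more in the cascade genes than in the fate factors. Relative to the mean of each gene over the 6 libraries, the 7 cascade genes had a median log2 deviation of 0.28 in control replicate 2 and 0.19 in labelled null replicate 1. The same median was 0.02 and 0.08 in control replicates 1 and 3, and -0.44 and -0.23 in labelled null replicates 2 and 3. The deviations of *Nrl* ran from -0.075 to 0.058 over the 6 libraries and those of *Nr2e3* from -0.099 to 0.10. All 7 cascade genes were highest in control replicate 2, and 6 of them were second in labelled null replicate 1, with *Sag* the exception.

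The cascade genes did not vary to the same degree. *Gnat1* spread 4.21-fold over the 6 libraries and *Pde6a* 3.69-fold, while *Cnga1* spread 1.89-fold, *Pde6g* and *Sag* 1.62-fold, *Pde6b* 1.55-fold, and *Cngb1* 1.36-fold. *Gnat1* and *Pde6a* also had the lowest means of the 9 genes. Among the 7077 genes that averaged 10 FPKM or more, the within-group SD on the log2 scale was smaller than that of *Gnat1* in 99.9%, than that of *Pde6a* in 99.8%, and than that of *Cnga1* in 97.4%. It was smaller than that of *Nrl* in 8.04% and than that of *Nr2e3* in 14.0%. The fate factors were therefore among the steadier of these 7077 genes, and *Gnat1* and *Pde6a* among the most variable of them.

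Markers of dividing cells stood in nearly the opposite order of libraries to the cascade, with control replicates 1 and 3 between the extremes in both. The summed FPKM of 7 cycling cell markers (*Mki67*, *Top2a*, *Ccna2*, *Ccnb1*, *Aurkb*, *Cdk1*, and *Birc5*) was 26.2, 18.1, and 28.7 in controls and 19.6, 45.1, and 36.8 in the libraries labelled null. Control replicate 2 and labelled null replicate 1, high in cascade genes, were below all other libraries in 6 of the 7 markers, and labelled null replicates 2 and 3, low in cascade genes, had the highest sums. The most abundant of these markers was *Ccna2*, with a mean of 9.39 FPKM, and none was at 0 in any library. All 7 had a higher mean log2 value in the libraries labelled null, by 0.49 at the median. Of the 7, 0 passed an unadjusted p of 0.05, against 8.15% of all genes tested (4.6% higher). The part of dividing cells in the cascade values was not tested.

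**Figure D3:**
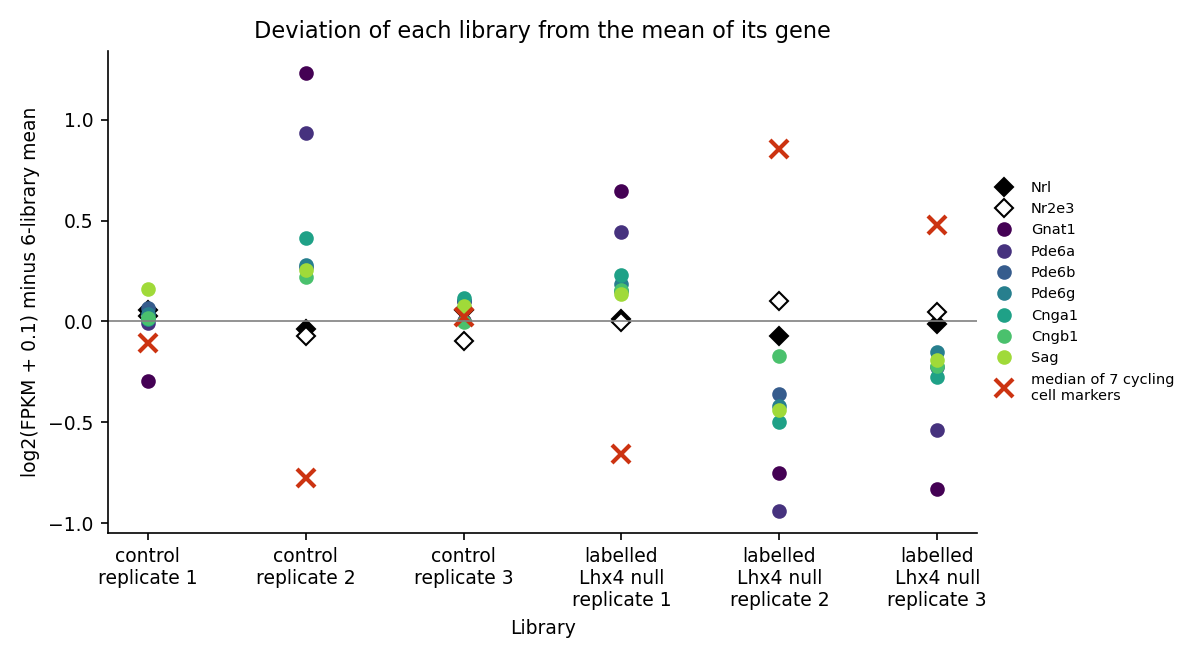
Deviation of log2(FPKM + 0.1) from the mean of each gene over the 6 libraries, for 7 cascade genes (coloured circles), *Nrl* and *Nr2e3* (black and open diamonds), and the median of 7 cycling cell markers (crosses). Cascade genes lie highest in control replicate 2 and lowest in labelled null replicates 2 and 3, where the crosses lie at -0.78, 0.85, and 0.48.

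Lens genes marked a different set of libraries. The summed FPKM of 7 lens markers was 2.65, 17.7, and 2.04 in controls and 2.76, 7.95, and 1.38 in the libraries labelled null, and the most abundant was *Cryaa*, with a mean of 1.85 FPKM. *Crybb2*, *Crygs*, and *Mip* were at 0 in at least 1 library. Replicate 2 of each group thus had the highest lens sum of its group, but not every marker followed. Among the libraries labelled null, *Crygs* was highest in replicate 1, and *Bfsp1* and *Mip* in replicate 3. Control replicate 2 was at 0 for *Mip*. Control replicate 2 and labelled null replicate 2 were respectively the highest in 7 and the lowest in 5 of the 7 cascade genes. Leaving out these libraries, as above, also removed the highest and most of the lowest cascade values, so that comparison cannot single out lens tissue. The part of lens tissue in the cascade values was not tested. Pigment epithelium markers, given under Other observations, had higher sums in the libraries labelled null, and their part was not tested either.

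Other genes of the rod cascade and its shut-off were mostly lower in the libraries labelled null as well. Of 16 such genes, 14 had a negative log2 fold change, the median was -0.27, and 4 passed an unadjusted p of 0.05. Of these 4, 3 were lower and 1 was higher, against 3.55% lower and 4.6% higher of all genes tested. The list is not confined to rods. It includes *Rcvrn*, which the study used to mark a type of cone bipolar cell that was reduced in the adult null retina. The part of other cell types in these values was not tested. *Grk1*, the kinase that marks the active pigment for arrestin, stood at 45.6, 56.7, and 46.4 FPKM in controls and at 49.9, 25.4, and 27.2 FPKM for the libraries labelled null (log2 fold change -0.60 ± 0.23 SE, limma adjusted p = 0.59). *Gngt1*, the gamma subunit of rod transducin, stood at 208, 256, and 220 FPKM against 209, 122, and 177 FPKM (log2 fold change -0.46 ± 0.18, limma adjusted p = 0.59). In both genes labelled null replicate 1 lay within the control range and the other libraries of its group below it. The log2 fold change of *Grk1* was -0.91 without labelled null replicate 1, and that of *Gngt1* was -0.24 without labelled null replicate 2.

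The remaining genes of this list were spread around these values. *Gucy2f*, a guanylate cyclase that restores cyclic GMP, stood at 4.09, 5.45, and 4.54 FPKM in controls and at 4.46, 1.76, and 3.02 FPKM for the libraries labelled null (log2 fold change -0.68 ± 0.29, limma adjusted p = 0.61). *Guca1a*, a calcium sensor that regulates the cyclase, was higher in the libraries labelled null, with 34.4, 31.4, and 33.9 FPKM against 45.5, 39.2, and 43.9 FPKM (log2 fold change 0.36 ± 0.08, limma adjusted p = 0.21). Its groups did not overlap, and it was the highest of the list by fold change. The lowest was *Slc24a1*, the sodium, calcium, and potassium exchanger of the rod outer segment, with 6.08, 15.0, and 7.04 FPKM against 10.5, 2.47, and 4.24 FPKM (log2 fold change -0.83 ± 0.51, limma adjusted p = 0.70). Its log2 fold change was -1.39 and -0.36 without labelled null replicates 1 and 2 and -0.44 without control replicate 2, and turned to 0.031 in the libraries low in lens genes. The log2 fold change of *Gucy2f* was -0.33 without labelled null replicate 2. The count of 4 became 12 without labelled null replicate 1, where 13% of all genes passed that threshold in place of 8.15% and *Grk1* reached an adjusted p of 0.033, within a range from 0.033 to 1.00 over 15 alternatives. It became 2 and 1 without labelled null replicates 2 and 3 (5.52% and 11.3% of all genes in these fits), 1 and 2 without control replicates 2 and 3 (8.05% and 4.54%), and 2 in the libraries low in lens genes (5.98%). In the libraries low in lens genes the log2 fold changes of *Grk1*, *Gngt1*, and *Gucy2f* were -0.32, -0.15, and -0.22.

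Fate factors outside the 9 genes went in both directions. Of 11 transcription factors and partners that shape photoreceptors, 4 were lower and 7 higher in the libraries labelled null, and 3 were lower with quantile normalization. The median log2 fold change was 0.06. In limma, 0 of the 11 passed an adjusted or unadjusted p of 0.05, against 0.224% and 8.15% of all genes tested. The lowest was *Ankrd33*, a repressor in photoreceptor precursors, with 42.6, 53.9, and 45.9 FPKM against 49.2, 30.3, and 29.6 FPKM (log2 fold change -0.42 ± 0.19 SE). The highest was *Prdm1*, which favours the photoreceptor over the bipolar fate, with 32.7, 29.6, and 33.0 FPKM against 35.2, 43.2, and 32.9 FPKM (log2 fold change 0.22 ± 0.11). Both overlapped between the groups, and the log2 fold change of *Ankrd33* was -0.66 without labelled null replicate 1 and that of *Prdm1* 0.10 without labelled null replicate 2. In the libraries low in lens genes they were -0.21 and 0.052. Without labelled null replicate 1, 3 of the 11 passed an unadjusted p of 0.05, against 13% of all genes in that fit, and without labelled null replicate 3, 2 did, against 11.3%.

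Genes of the outer segment, the stack of membrane discs that holds the cascade, had negative log2 fold changes throughout. All 13 measured genes were lower by this measure in the libraries labelled null; the median was -0.20, and 3 passed an unadjusted p of 0.05, against 3.55% of all genes tested lower at that threshold. *Rp1l1*, a protein of the photoreceptor axoneme, stood at 51.3, 56.5, and 53.2 FPKM against 53.7, 36.4, and 38.0 FPKM (log2 fold change -0.35 ± 0.14 SE, limma adjusted p = 0.59). *Fscn2*, an actin-bundling protein, stood at 8.15, 8.85, and 10.3 FPKM against 7.91, 6.76, and 5.90 FPKM (log2 fold change -0.41 ± 0.13, limma adjusted p = 0.50). The groups did not overlap for *Fscn2* and overlapped through labelled null replicate 1 for *Rp1l1*. *Tulp1*, which takes part in protein transport to the outer segment, had the highest log2 fold change of the list, at -0.05. This value was -0.11, -0.025, and -0.0031 without labelled null replicates 1, 2, and 3, -0.024 without control replicate 2, and -0.0026 in the libraries low in lens genes. The log2 fold change of *Rp1l1* was -0.53 without labelled null replicate 1 and -0.21 in the libraries low in lens genes. The count of 3 became 8, 1, and 0 without labelled null replicates 1, 2, and 3 (13%, 5.52%, and 11.3% of all genes in these fits), 1 without control replicate 2 or 3 (8.05% and 4.54%), and 0 in the libraries low in lens genes (5.98%).

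Cones use their own copies of most cascade proteins, which gives 6 of the 9 rod genes a counterpart in the same library. Of 12 cone genes, 3 were lower and 9 higher in the libraries labelled null, and 4 were lower with median-of-ratios scaling or quantile normalization. The median log2 fold change was 0.29, 7 genes passed an unadjusted p of 0.05 (2 lower and 5 higher), against 3.55% lower and 4.6% higher of all genes tested, and 8 did not overlap between groups, against the 14.2% given above. *Opn1sw*, the short-wavelength cone pigment, rose from 103, 92.9, and 85.2 FPKM to 201, 153, and 164 FPKM (log2 fold change 0.88 ± 0.12 SE, limma adjusted p = 0.031), and its adjusted p ran from 0.027 to 0.27 over 15 alternatives, under 0.05 in 6. Its adjusted p went above 0.05 without each of control replicates 1, 2, and 3 (0.062, 0.12, and 0.14) and without labelled null replicate 2 or 3 (0.085 and 0.11). *Opn1mw*, the medium-wavelength pigment, was the lowest of the list, with 1.41, 2.75, and 1.46 FPKM against 0.699, 0.351, and 0.367 FPKM (log2 fold change -1.77 ± 0.32, limma adjusted p = 0.097). At these low levels the size of the fold change depended on the pseudocount, the constant added to FPKM before taking logs, and it was -0.94 with a pseudocount of 1 in place of 0.1. *Rxrg*, a nuclear receptor of developing cones, stood at 7.83, 5.79, and 7.74 FPKM against 10.02, 15.8, and 13.1 FPKM (log2 fold change 0.85 ± 0.18, limma adjusted p = 0.19). In the libraries low in lens genes its log2 fold change was 0.55. In *Opn1sw*, *Opn1mw*, and *Rxrg*, labelled null replicate 1 lay on the side of its own group.

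Against their cone counterparts, 5 of 6 rod genes had a lower ratio (of FPKM + 0.1) in the libraries labelled null. *Pde6g* was 43.9, 67.2, and 47.6 times its counterpart *Pde6h* in controls and 30.4, 23.8, and 22.2 times in the libraries labelled null, a log2 difference of -1.04. *Cnga1* was 17.1, 23.9, and 22.6 times *Cnga3*, the cone channel subunit, in controls and 15.2, 9.51, and 12.3 times in the libraries labelled null, a log2 difference of -0.79. Neither ratio overlapped between the groups (exact permutation test, two-sided p = 0.1 for each; adjusted p = 0.25 over 10 ratios). Both members of each pair entered these differences. *Pde6h* itself stood at 12.8, 9.85, and 12.02 FPKM against 20.6, 17.2, and 22.3 FPKM (log2 fold change 0.79 ± 0.13 SE, limma adjusted p = 0.076). *Cnga3* stood at 3.43, 3.24, and 2.77 FPKM against 4.55, 4.36, and 3.92 FPKM (log2 fold change 0.43 ± 0.12, limma adjusted p = 0.41).

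The ratio of the arrestins went the other way. *Sag* was 32.8, 33.8, and 29.4 times *Arr3*, the cone arrestin, in controls and 54.7, 72.2, and 57.9 times in the libraries labelled null, a log2 difference of 0.94 without overlap between the groups (exact permutation test, two-sided p = 0.1; adjusted p = 0.25 over 10 ratios). *Arr3* stood at 28.7, 29.7, and 30.2 FPKM in controls and at 16.9, 8.53, and 12.7 FPKM for the libraries labelled null (log2 fold change -1.27 ± 0.21 SE, limma adjusted p = 0.077). Its adjusted p was 0.019 without labelled null replicate 1, in a range from 0.019 to 0.27 over 15 alternatives. Rod and cone arrestin were thus both lower in the means of the libraries labelled null, and the cone gene by more.

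The remaining rod to cone ratios overlapped between the groups. *Gnat1* was 0.759, 2.50, and 1.02 times *Gnat2*, the cone transducin, in controls and 1.09, 0.527, and 0.431 times in the libraries labelled null (log2 difference -0.99, exact permutation test, two-sided p = 0.3; adjusted p = 0.38 over 10 ratios). *Gnat1* was thus above *Gnat2* in control replicates 2 and 3 and labelled null replicate 1, and below it in the other 3 libraries. The difference was -0.49 without control replicate 2. *Pde6a* was 1.20, 2.31, and 1.44 times *Pde6c*, the cone catalytic subunit, in controls and 1.29, 0.777, and 0.824 times in the libraries labelled null (log2 difference -0.76, exact permutation test, two-sided p = 0.2; adjusted p = 0.29), and the difference was -0.49 without control replicate 2. *Cngb1* was 33.8, 39.9, and 29.8 times *Cngb3* in controls and 32.3, 26.3, and 21.7 times in the libraries labelled null (log2 difference -0.37, exact permutation test, two-sided p = 0.2; adjusted p = 0.29), and the difference was -0.23 without labelled null replicate 3. Of these counterparts, *Gnat2* had a log2 fold change of 0.36 ± 0.10 (limma adjusted p = 0.39), *Cngb3* of 0.22 ± 0.10 (limma adjusted p = 0.64), and *Pde6c* of 0.07 ± 0.15 (limma adjusted p = 0.93), which turned to -0.10 without labelled null replicate 1 and was 0.23 and 0.018 without labelled null replicate 2 and control replicate 3, and 0.26 in the libraries low in lens genes.

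**Figure D4:**
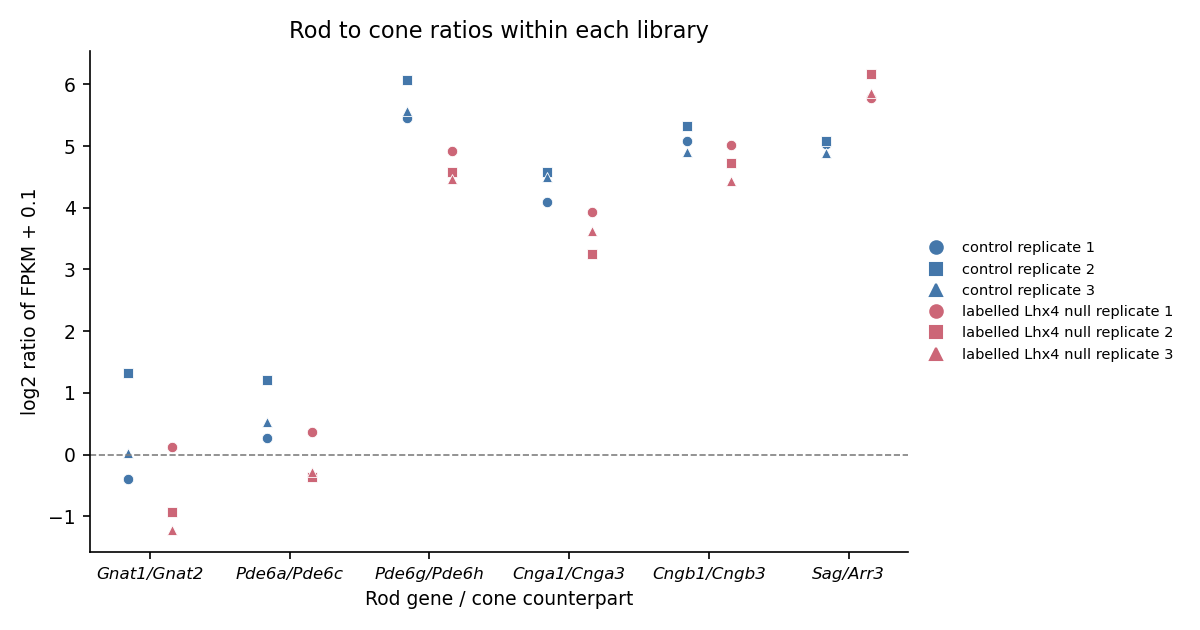
Log2 ratio of FPKM + 0.1 of each rod gene to its cone counterpart within each library, with blue for control, red for the libraries labelled *Lhx4* null, and symbols for replicate numbers. The groups are apart for *Pde6g*/*Pde6h* and *Cnga1*/*Cnga3* (lower in the libraries labelled null) and for *Sag*/*Arr3* (higher), and the dashed line marks equal levels.

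Genes that followed the 9 across the libraries were sought among 12476 others averaging 1 FPKM or more, by Pearson's r over the 6 libraries with the mean of the 9 standardized genes. The 8 closest were *Tnfsf13* (r = 0.996), *Pex5l* (0.992), *Cabp4* (0.992), *Ric8b* (0.992), *Mbnl1* (0.991), *Gucy2e* (0.991), *Gnb5* (0.991), and *Exoc3l* (0.990). These values describe 6 libraries that also differ in depth, and no test was made of them. *Gucy2e*, a guanylate cyclase of photoreceptors, stood at 25.3, 30.6, and 24.8 FPKM in controls and at 27.1, 18.5, and 19.9 FPKM for the libraries labelled null. *Gnb5*, the G protein subunit that works with RGS9 to switch transducin off, stood at 87.1, 99.8, and 85.3 FPKM and at 91.6, 66.8, and 69.6 FPKM. *Cabp4*, a calcium-binding protein of the photoreceptor synapse, stood at 15.4, 22.5, and 16.7 FPKM and at 19.3, 7.63, and 10.2 FPKM. In all 3 genes control replicate 2 was highest, labelled null replicate 1 second, and labelled null replicate 2 lowest. Of the 9 genes themselves, the cascade genes had r from 0.89 for *Gnat1* to 0.99 for *Pde6b* with the mean they contribute to, *Nrl* had 0.47, and *Nr2e3* had -0.75.

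Sequence at the start sites was read for some of the genes, and *Gnat1*, *Pde6a*, and *Pde6g* had no window. RefSeq promoter windows on GRCm38.p6, from 250 bases before to 50 bases after the start of the gene, were at hand for 6 of the 9 genes (*Nrl*, *Nr2e3*, *Pde6b*, *Cnga1*, *Cngb1*, and *Sag*). They were searched on both strands for TAATCC, a core bound by the photoreceptor factor CRX, and for TGCTGA, a half-site of NRL. CRX letters were found in 3 of the 6 windows (*Cnga1*, *Cngb1*, and *Sag*), against 7.06% of 32851 windows of the same length, and NRL half-site letters in 2 of the 6 (*Pde6b* and *Sag*), against 19.5%. The windows of *Nrl* and *Nr2e3* held neither. Shown are 3 cascade windows that differ in what they hold, 5′ to 3′ on the strand of the gene, with the matched letters in capitals. That of *Sag* lies at chr1:87803430-87803729 on the plus strand, that of *Cngb1* at chr8:95306536-95306835 on the minus strand, and that of *Pde6b* at chr5:108388123-108388422 on the plus strand. In GENCODE the last 50 bases of the *Sag* and *Cngb1* windows and the last 32 bases of the *Pde6b* window fall in the first exon, and the rest lies upstream of the annotated gene. The windows of *Cnga1*, *Nrl*, and *Nr2e3* lie wholly inside the annotated gene, with 300, 300, and 88 of their 300 bases in its exons, so for these genes the RefSeq start is not the outermost start in GENCODE.
Sag: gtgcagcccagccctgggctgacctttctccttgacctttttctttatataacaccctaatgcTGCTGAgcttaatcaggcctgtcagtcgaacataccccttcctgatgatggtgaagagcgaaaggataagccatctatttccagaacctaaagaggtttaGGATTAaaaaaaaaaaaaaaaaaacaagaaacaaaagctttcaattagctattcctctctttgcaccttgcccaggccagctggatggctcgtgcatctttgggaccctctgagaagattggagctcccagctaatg
Cngb1: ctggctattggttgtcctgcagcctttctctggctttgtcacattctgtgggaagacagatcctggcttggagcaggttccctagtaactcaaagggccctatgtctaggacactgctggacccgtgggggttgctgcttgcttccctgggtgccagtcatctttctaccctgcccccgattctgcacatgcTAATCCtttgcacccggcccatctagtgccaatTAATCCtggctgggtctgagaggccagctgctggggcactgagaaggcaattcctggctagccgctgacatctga
Pde6b: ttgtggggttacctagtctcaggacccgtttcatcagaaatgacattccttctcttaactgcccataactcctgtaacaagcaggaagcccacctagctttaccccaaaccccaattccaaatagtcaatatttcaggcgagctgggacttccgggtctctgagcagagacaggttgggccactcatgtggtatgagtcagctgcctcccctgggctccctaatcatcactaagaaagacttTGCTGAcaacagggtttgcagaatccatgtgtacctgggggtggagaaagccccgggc
*Sag* thus held 1 match of each kind, *Cngb1* 2 CRX matches shortly before its start, and *Pde6b* 1 NRL half-site next to its start. A match describes letters and shows no binding, and its part in the library pattern of the cascade genes was not tested.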

How the data were processed

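The authors sequenced total RNA of P7 retina from 3 control mice and 3 *Lhx4* null mice (TruSeq libraries, Illumina, paired ends), and the submitters' processing notes name TopHat2, Cufflinks, and GRCm38. Versions, annotation, and strand of counting are not given in the sources used here. The deposited values are FPKM per gene, normalized by the authors for length and depth; 0 columns were left unused.

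Here, log2(FPKM + 0.1) of 15200 genes averaging 0.1 FPKM or more was fitted with limma 3.58.1 in R 4.3.3 (lmFit and eBayes with a trend), null minus control, two-sided, with Benjamini-Hochberg adjustment over all genes tested. This scale understates changes of low genes. Ratios between genes were taken of FPKM + 0.1 and compared by exact permutation tests, adjusted over 10 ratios. Values of 5708 genes below 0.1 FPKM throughout move in steps of 1 fragment, and their most frequent ratio between libraries gave relative depth. Positions came from GENCODE M21. The fit and the depth estimate were tested on simulated data. Plots used Python 3.11.15 and matplotlib 3.10.9.

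Named genes were the 9 rod genes, *Lhx4*, cone counterparts, genes of 4 photoreceptor lists past an unadjusted p of 0.05 or highest or lowest by fold change, and the 8 genes most like the 9. The result for 1 such gene is not reported here. The genes and lists were chosen with earlier results of these data known. Alternatives changed the pseudocount, filter, scaling, trend, replicate block, and libraries; the comparison of libraries low in lens genes was added after seeing the data.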

Additional observations from a re-analysis of the deposited data

How the results depend on the processing

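Under 15 alternatives for each of the 9 rod genes, 134 of 135 fits kept the direction, and 0 passed an adjusted p of 0.05. The exception was *Gnat1*, at 0.054 in the libraries low in lens genes, a comparison added after seeing the data; there the median over the 9 genes was -0.059, *Slc24a1* was 0.031, 1 gene of all tested passed the adjusted threshold, and 2 other rod cascade genes and 0 outer segment genes passed the unadjusted one, against 5.98% of all genes. With libraries left out in turn, the genes passing an adjusted p of 0.05 numbered 15 to 31 in place of 34, rod genes at an unadjusted p of 0.05 numbered 0 to 7, other rod cascade genes 1 to 12, other fate factors 0 to 3, and outer segment genes 0 to 8. The share of all genes at that threshold ran from 4.54% (without control replicate 3) to 13% (without labelled null replicate 1), and the highest of each of these 4 counts also fell without labelled null replicate 1. The median over the 9 genes then ran from -0.44 to -0.18. *Pde6c* ran from -0.10 (without labelled null replicate 1) to 0.23, and the log2 difference in the ratio of *Gnat1* to *Sag* from -0.63 to 0.12 (without control replicate 2), the 1 of 90 ratio results that changed direction. Without a filter, 20 genes passed the adjusted threshold and 1 other rod cascade gene the unadjusted one, against 7.7% of all genes. With a filter at a mean of 1 FPKM, 1 of the 9 rod genes (*Sag*) passed an unadjusted p of 0.05, against 8.23% of all genes. Of the other rod cascade genes, 1 passed without the trend (8.15% of all genes) and 2 with quantile normalization (8.07%). The cause of these changes was not tested.

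With the replicate block, 15 genes passed the adjusted threshold, and 2 other rod cascade genes the unadjusted one, against 7.64% of all genes. Deviations of libraries with the same number correlated at -0.13, 0.00, and 0.16, and not every library correlated best with its own number. With 3 libraries a group, these correlations cannot show whether libraries of the same number were paired. For the 29 named genes outside the 9, 421 of 435 fits kept direction and side of the threshold, 9 lost and 3 gained the adjusted threshold, and 2 changed direction. Of the 8 genes most like the 9, 7 were found again with a filter at 5 FPKM. The exact test of 3 against 3 libraries has a floor of p = 0.1, and the libraries labelled null were all shallower than the controls.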

Other observations

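Markers of the other cell types of the retina were counted in the same limma fit at an unadjusted p of 0.05, which 8.15% of all genes tested passed (3.55% lower and 4.6% higher). The summed FPKM of the 11 bipolar markers was 708, 827, and 645 in controls and 528, 473, and 463 in the libraries labelled null. Labelled null replicate 1, which lay with the controls in the rod cascade, lay with its own group in this sum. Of 8 amacrine markers, 7 were higher and 4 passed, all higher. Among 3 horizontal cell, 6 Muller glia, and 7 ganglion cell markers, 0, 0, and 1 passed.

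Of 7 pigment epithelium markers, 6 were higher and 3 passed, all higher, against the 4.6% of all genes given above, and their summed FPKM was 40.0, 34.3, and 20.0 in controls and 42.3, 52.4, and 71.7 in the libraries labelled null, most of it *Ttr*, with a mean of 28.6 FPKM. None was at 0 in any library. Among 6 microglia markers 1 passed (higher), and among 4 endothelial markers 1 passed in each direction.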
